A study of Mus musculus with 23 samples.

Results

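The RB pathway and the G1/S cyclins were followed here through 10 mouse genes: the D cyclins Ccnd1, Ccnd2 and Ccnd3, the E cyclins Ccne1 and Ccne2, the kinases Cdk4 and Cdk6, the pocket proteins Rb1 and Rbl1, and the transcription factor E2f1. They are 10 of 12393 genes on the Affymetrix Mouse 430A 2.0 array that at least 1 probe set names alone, and 22 of 22626 probe sets name them. A probe set belonged to a member when the platform annotation gave that symbol and no other, and each member was read through its brightest probe set over all arrays. Values are log2 of the intensity that the authors obtained by Robust Multichip Average (RMA), and a difference of 1 is a doubling.

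The series holds 23 arrays in 6 groups. Mouse embryonic fibroblasts (MEFs), taken from E13.5 embryos, lacked Ezh2 alone (Ezh2-deficient, 3 arrays), lacked Snf5 as well (Snf5 Ezh2-deficient, 3 arrays) or were wild type, with 3 control arrays named for each mutant line. Both genes were inactivated conditionally in these cells, and no source used here names the Cre driver. The other 2 groups were purified CD8+ T cells of mice 10 to 15 weeks old, from wild-type animals (6 arrays) or out of Snf5-deficient lymphomas (5 arrays). Ezh2 is the histone methyltransferase of Polycomb repressive complex PRC2, and Snf5, the product of Smarcb1, belongs to the core of SWI/SNF, a complex that remodels nucleosomes. The study asked how the opposed regulators shape expression in fibroblasts and which programs are altered in tumours without Snf5.

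In a resting cell the pocket proteins bind E2F factors and hold their target genes silent. Mitogens raise the D cyclins, which activate Cdk4 and Cdk6, and these kinases begin to phosphorylate the pocket proteins. Released E2F then drives the E cyclins, which carry phosphorylation further, and the genes of DNA replication. Lymphocytes lean on Ccnd2, Ccnd3 and Cdk6, whereas Ccnd1 is the typical D cyclin of fibroblasts. Loss of Snf5 in tumours has been tied to this pathway through the CDK inhibitor p16, a product of Cdkn2a.

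RefSeq promoter windows of build GRCm38.p6 were at hand for 6 of the 10 members (Ccnd3, Ccne1, Cdk4, Cdk6, E2f1 and Rbl1), in 7 windows. The 250 bases before the annotated start were searched on both strands for the E2F site, written as TTTCCCGC, TTTCGCGC, TTTGCCGC or TTTGGCGC, and for the MYC E-box CACGTG. The motifs do not overlap each other in these windows. The groups of T cells did not overlap for Cdk4, and Rbl1 separated the mutant fibroblast lines. Cdk4 and Rbl1 are shown because they held the most E-boxes and the only E2F site among these windows. The first lies at chr10:127063285-127063534 on the plus strand and the second at chr2:157204535-157204784 on the minus strand, both printed 5′ to 3′ on the strand of the gene with the motifs in capitals.
Cdk4: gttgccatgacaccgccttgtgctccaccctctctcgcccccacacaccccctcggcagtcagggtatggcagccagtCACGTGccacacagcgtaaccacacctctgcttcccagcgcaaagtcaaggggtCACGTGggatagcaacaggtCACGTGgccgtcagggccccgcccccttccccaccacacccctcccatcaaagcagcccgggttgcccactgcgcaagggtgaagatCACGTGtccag
Rbl1: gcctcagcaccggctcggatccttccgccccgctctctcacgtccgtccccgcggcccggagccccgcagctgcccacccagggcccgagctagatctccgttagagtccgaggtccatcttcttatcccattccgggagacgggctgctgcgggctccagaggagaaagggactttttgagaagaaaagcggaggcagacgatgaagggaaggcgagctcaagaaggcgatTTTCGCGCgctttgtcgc
Cdk4 carried 4 E-boxes, which began 172, 118, 98 and 11 bases before the start. E-boxes occurred in 6.02% of all 32851 windows of this length, and 4 or more in 0.0213%. Cdk6 carried 1 E-box, 220 bases before its start. The E2F site of Rbl1 began 18 bases before the start, and 1.86% of all windows held such a site. These matches describe letters only. The start annotated for E2f1 may be an alternative one, so the lack of a motif in its window does not describe its other promoters.

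The deleted genes were checked first. Ezh2 changed by -2.18 (Ezh2-deficient MEFs) and -1.66 (Snf5 Ezh2-deficient MEFs), and Smarcb1 by -2.46 (Snf5 Ezh2-deficient MEFs) and -3.65 (lymphomas) (limma with Benjamini-Hochberg adjustment, largest adjusted p = 0.00244). The 3 controls in the second set of MEF arrays repeated the hybridisations of the first, so both mutant lines were compared with the same 3 controls and 9 distinct MEF arrays entered the fit. T cell and MEF arrays were summarised separately and no test crosses them. The titles name biological replicates, separate cultures or animals are not stated, so p-values reflect only the spread among the samples at hand. In RNA from many cells, fewer cells of a type and less RNA per cell cannot be told apart. The fibroblast markers were high in all MEFs (summed log2 15.53 to 16). Eif2s3y, a Y-linked gene, read 8.24, 3.65 and 4.00 in the 3 Ezh2-deficient MEF arrays and at least 8.02 on every other MEF array.

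The T cell arrays were uneven. Cd8a and Cd8b1, which encode CD8 itself, read 10.73 and 9.35 on wild-type CD8 array 1 and 10.59 and 8.07 on array 6, against at least 13.32 and 12.53 on the other wild-type arrays and at least 13.12 and 11.97 in the lymphomas. The summed level of 5 B cell markers was 10.81 to 13.96 in the wild-type cells and 7.49 to 8.79 in the lymphomas, and that of 9 myeloid markers was 10.59 to 16.47 and 13.35 to 15.50. The summed level of 3 NK cell markers was 11.24 to 13.62 in the wild-type cells and 5.62 to 7.89 in the lymphomas, and that of 4 epithelial markers was 8.54 to 10.96 and 11.20 to 13.09, both without overlap. Cd4 read up to 11.11 on wild-type array 5. Wild-type arrays 3 and 4 had the lowest mean over 11 proliferation markers, 7.84 and 8.16, against 10.42 to 11.67 on the other wild-type arrays and 11.44 to 11.75 in the lymphomas. The ratio of 3′ to 5′ Gapdh signal, a measure of RNA integrity, was 3.96 and 2.86 (log2) on wild-type arrays 5 and 6, 0.79 to 1.71 on the others and 0.70 to 1.05 in the lymphomas. Eif2s3y read 9.84 and 6.11 on wild-type arrays 3 and 4, at most 3.91 on the other wild-type arrays, at least 11.81 in lymphomas 2, 3 and 4, and 3.45 and 3.32 in lymphomas 1 and 5. The part of these markers in the T cell results was not tested. The T cell comparison was also made without arrays 1 and 6, 3 and 4, or 5 and 6, a choice made after the values were seen.

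In Ezh2-deficient MEFs, Ccne2 was the only member called, at 1.38-fold lower (log2 difference -0.47, SE 0.0669, adjusted p = 0.00868 by limma). That is 0 of 10 members called higher and 1 called lower, while 1.02% of all genes were called higher and 2.47% lower. At an unadjusted p under 0.05 limma gave 2 members higher and 4 lower. The share of all genes at that looser threshold was not computed, so these 2 counts have no background here. Ccne2, an activator of Cdk2 at the start of S phase, read 6.15, 6.10 and 6.06 in the controls against 5.57, 5.61 and 5.73 in the mutant. No mutant array reached the lowest control. The level was dim, between the percentiles 24.8 and 33.7 of all values on its arrays, and such differences are of values near the floor. With Eif2s3y as a covariate the difference was -0.52 and the call was lost (adjusted p = 0.0561).

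The other 9 members did not pass in the Ezh2-deficient MEFs, although the groups did not overlap for 8 of the 10, as for 32.7% of all genes. Ccne1, the other gene of cyclin E, differed by -0.18 (adjusted p = 0.0969), and Cdk4, the kinase partner of the D cyclins, by -0.26 (adjusted p = 0.0665). Rb1, the retinoblastoma protein gene, read 7.71, 7.58 and 7.74 in the controls and 8.16, 8.14 and 7.85 in the mutant, a difference of 0.37 (adjusted p = 0.0645). Without Ezh2-deficient array 3 that difference was 0.47 and was called (adjusted p = 0.0323). Rbl1, which encodes the pocket protein p107, differed by -0.40 (adjusted p = 0.0905), and E2f1 by -0.17 (adjusted p = 0.287). The D cyclins differed by -0.29 (Ccnd1), 0.081 (Ccnd2) and -0.12 (Ccnd3), with adjusted p from 0.223 to 0.501. The median over the members was -0.17 against 0.004 over all genes, and 3 control arrays against 3 cannot give an exact permutation p below 0.1.

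In the Snf5 Ezh2-deficient MEFs 6 members were called against the wild type. Rb1 rose 2.17-fold, Ccnd2 rose 1.77-fold, and Ccnd3 and Ccne1 rose 1.21-fold and 1.13-fold. Ccnd1 fell 1.45-fold and Ccne2 fell 1.37-fold. That is 4 of 10 members called higher, with 13.2% of all genes called higher, and 2 called lower, with 14.3% of all genes called lower. The groups did not overlap for 6 of 10 members, as for 43.2% of all genes.

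Rb1 read 7.64, 7.45 and 7.68 in the controls of the double mutant, which lacks Snf5 and Ezh2, and 8.64, 8.64 and 8.84 in the mutant itself (log2 difference 1.12, SE 0.0967, adjusted p = 3.09e-05). Every mutant array lay above every control by far more than the spread within either group, which was 0.121 and 0.112 (SD, n = 3). Rb1 was measured by a single probe set.

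Among the D cyclins, which couple mitogen signals to Cdk4 and Cdk6, the directions were mixed. Ccnd2 read 12.45, 12.61 and 12.58 in the controls and 13.31, 13.46 and 13.34 in the mutant, a rise of 0.82 (SE 0.069, adjusted p = 2.5e-05). All 7 Ccnd2 probe sets were called higher, with differences of 0.78 to 0.88. Ccnd3 read 10.85, 10.90 and 10.78 against 11.11, 11.14 and 11.12, a rise of 0.28 (SE 0.0543, adjusted p = 0.00368). The mutant arrays were the higher ones throughout for both cyclins. Ccnd1 read 11.13, 11.57 and 11.37 in the controls and 10.73, 10.73 and 11 in the mutant, a difference of -0.54 (SE 0.152, adjusted p = 0.0253). Its groups did not overlap, but the controls alone spanned 0.44. A further Ccnd1 probe set was called at -0.54 (adjusted p = 0.0205) and another, at -0.43, was not (adjusted p = 0.0609). The call on Ccnd1 was also lost on leaving out wild-type array 2, wild-type array 3, mutant array 1 or mutant array 2, with adjusted p from 0.0711 to 0.097.

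The E cyclins moved in opposite directions. Ccne1, which activates Cdk2 at the end of G1, read 8.89, 8.93 and 8.93 in the controls and 9.04, 9.08 and 9.15 in the double mutant (difference 0.17, SE 0.0546, adjusted p = 0.0393). Ccne2 read 5.96, 5.80 and 5.80 against 5.41, 5.32 and 5.46 (difference -0.46, SE 0.0669, adjusted p = 0.000688), again near the floor. Neither pair of groups overlapped. The call on Ccne1 rested on a small difference and was lost in 9 of 15 alternatives. These were leaving out any 1 wild-type array, mutant array 2 or mutant array 3 (adjusted p from 0.0674 to 0.116), fitting each set of MEF arrays alone (0.0633), median centring (0.0559), the replicate block (0.0649) and Eif2s3y as a covariate (0.056).

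The kinases, Rbl1 and E2f1 did not pass against the wild type. Cdk4 differed by -0.079 (adjusted p = 0.464), and its 3 probe sets lay between -0.079 and -0.043. Cdk6 read 5.06 to 5.31 in the double mutant and 5.22 to 5.31 in its controls, within the lowest 25% of the values on every MEF array, so its differences among fibroblasts are of values near the floor. Rbl1 differed by 0.17 (adjusted p = 0.353) and E2f1 by 0.19 (adjusted p = 0.178). E2f1 read 9.06, 9.09 and 8.77 in the mutant and 8.80, 8.78 and 8.78 in the controls, so mutant array 3 fell below the controls. Without that array the E2f1 difference was 0.29 and was called (adjusted p = 0.0296).

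**Figure D1:**
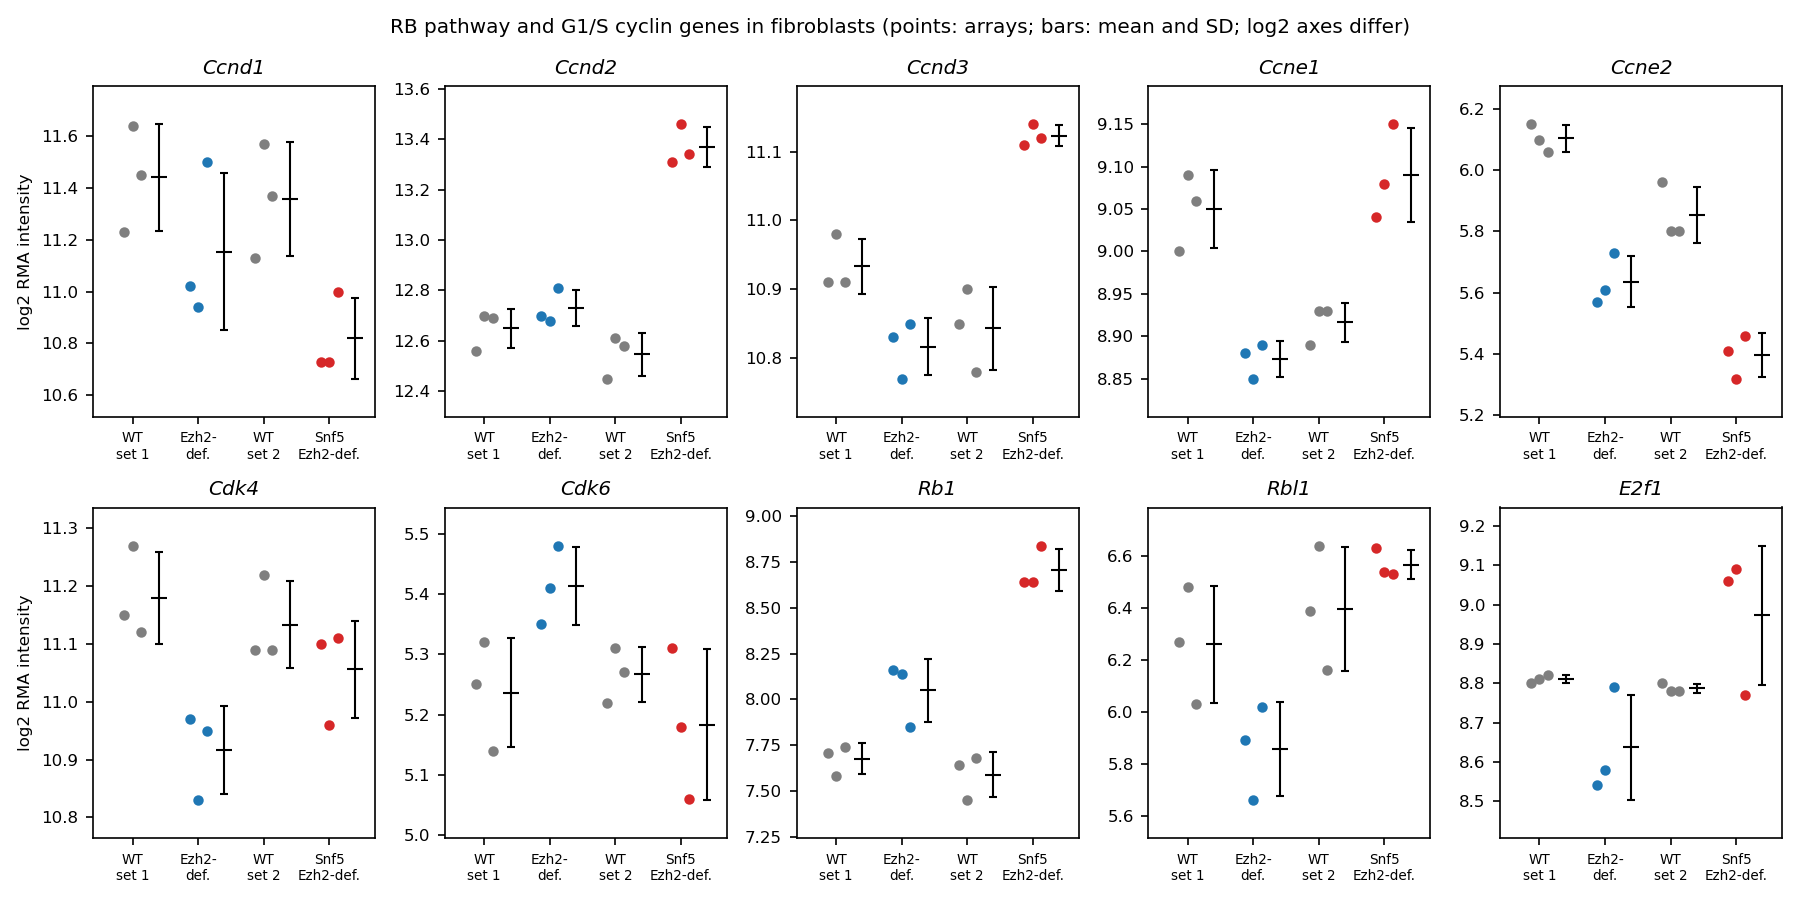
Log2 RMA intensity of the 10 members on each MEF array; points are arrays, black bars the mean and SD of each group (n = 3), and each panel has its own log2 axis. Rb1 and Ccnd2 stand highest in the Snf5 Ezh2-deficient MEFs (8.64 to 8.84 and 13.31 to 13.46), and Ccne2 is lower than its own controls in both mutant lines.

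The mutant lines were then compared directly, which tests the difference between both effects after the second set was moved by the offset of the common controls. Here 6 of 10 members were called higher in the Snf5 Ezh2-deficient than in the Ezh2-deficient MEFs, with 16.3% of all genes called higher, and 1 was called lower, with 13.6% of all genes called lower. The groups did not overlap for 8 of 10 members, as for 44.2% of all genes. The member calls in this comparison were not recomputed with Eif2s3y as a covariate. Ccnd2 was higher by 0.74 (SE 0.069, adjusted p = 4.93e-05), Rb1 by 0.74 (SE 0.0967, adjusted p = 0.000364), Ccnd3 by 0.40 (SE 0.0543, adjusted p = 5e-04) and Ccne1 by 0.35 (SE 0.0546, adjusted p = 0.00104). These 4 were also called higher in the double mutant than in the wild type.

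Rbl1 and E2f1 were called in the direct comparison although neither line passed against the wild type. Rbl1 read 5.89, 5.66 and 6.02 in the Ezh2-deficient MEFs, all below its own controls at 6.27, 6.48 and 6.03, and 6.63, 6.54 and 6.53 in the double mutant beside controls at 6.39, 6.64 and 6.16. The difference was 0.57 (SE 0.12, adjusted p = 0.00552), while a dimmer Rbl1 probe set gave 0.13 (adjusted p = 0.295). E2f1 read 8.54, 8.58 and 8.79 in the Ezh2-deficient MEFs and differed between the lines by 0.36 (SE 0.0924, adjusted p = 0.0163), with 0.19 (adjusted p = 0.0423) in its other probe set. The call on E2f1 was lost without Ezh2-deficient array 1 or double-mutant array 1 or 2 (adjusted p from 0.056 to 0.062). Cdk6 differed by -0.26 (double mutant minus Ezh2-deficient, adjusted p = 0.0234), near the floor, and this call was lost without Ezh2-deficient array 3 or double-mutant array 2 or 3 (adjusted p from 0.0523 to 0.0793) and with quantile normalization (0.0559).

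Ccne2 gave a contrasting case, in which both lines differed from their controls by -0.47 and -0.46 and the difference between them was 0.008 (SE 0.0669, adjusted p = 0.943). Ccnd1 differed between the lines by -0.25 (adjusted p = 0.252) and Cdk4 by 0.18 (adjusted p = 0.0725). The lines share all controls, so the separate falls of Ccne2 are not independent of each other.

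**Figure D2:**
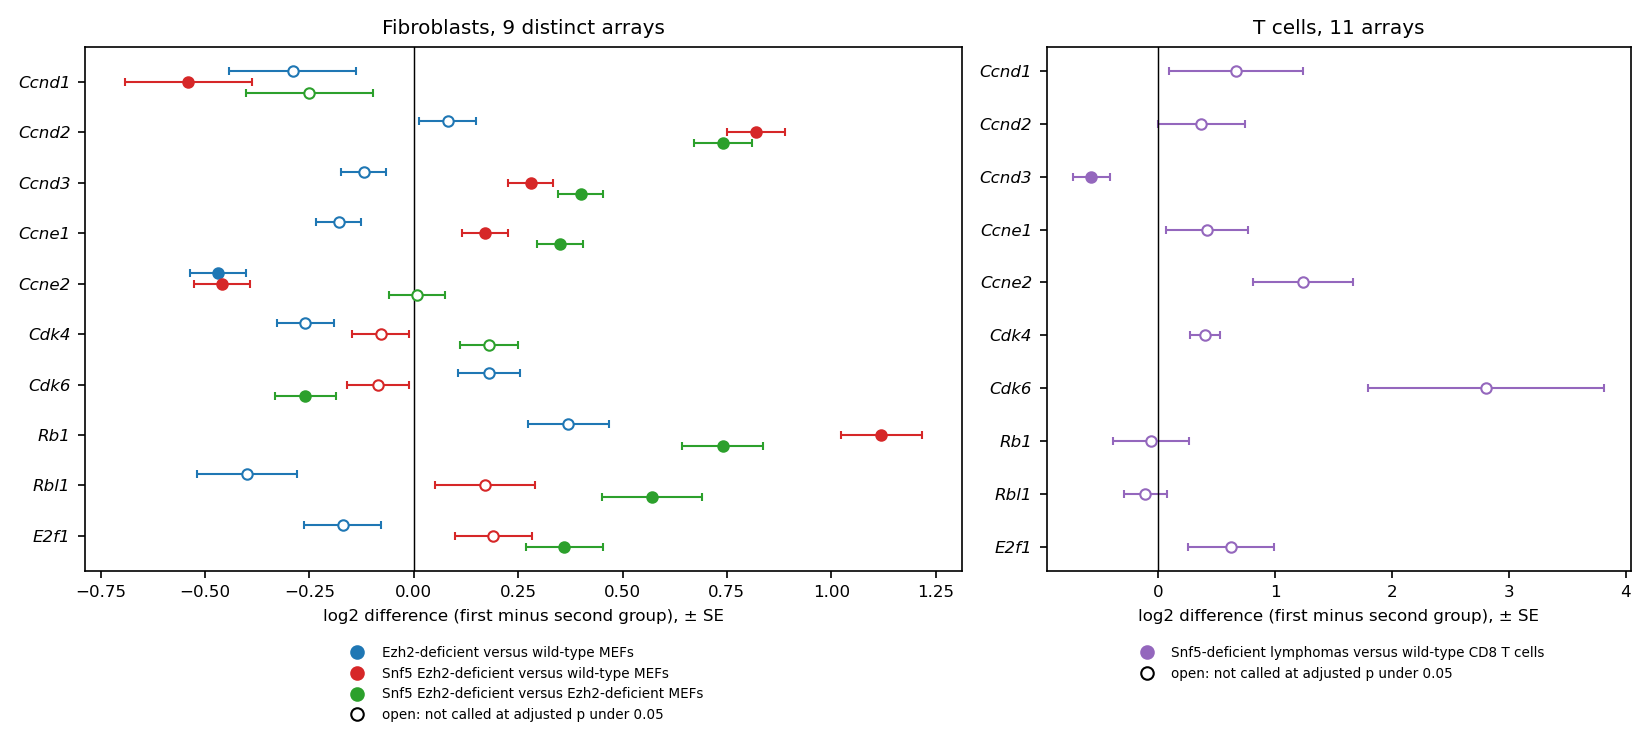
Log2 differences of the 10 members with their standard errors, for the 3 fibroblast comparisons (left) and for lymphomas against CD8+ T cells (right); filled points were called by limma at an adjusted p under 0.05. Rb1 and Ccnd2 have the largest rises in the Snf5 Ezh2-deficient MEFs (1.12 and 0.82), and in the T cell comparison only Ccnd3 (-0.57) is filled while Cdk6 has the largest difference and the widest error (2.81, SE 1.01).

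In the lymphomas, Ccnd3 was the member that passed, at 1.49-fold below the wild-type CD8+ T cells (log2 difference -0.57, SE 0.156, adjusted p = 0.0314 by limma). That is 0 of 10 members called higher, with 9.13% of all genes called higher, and 1 called lower, with 7.71% of all genes called lower. At an unadjusted p under 0.05 limma gave 3 members higher and 1 lower, again without a computed share of all genes at that threshold. Cdk4, Cdk6 and Ccne2 had higher means in the lymphomas and missed the threshold. The groups did not overlap for 2 of 10 members, Ccnd3 and Cdk4, as for 12.8% of all genes. The median over the members was 0.41 against -0.066 over all genes.

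Ccnd3, the D cyclin that developing and activated T cells need, read 11.79 to 12.38 in wild-type cells with a median of 12.15, and 11.59, 11.35, 11.71, 11.29 and 11.71 in the lymphomas. All 5 lymphoma arrays lay below the lowest wild-type array (exact two-sided permutation p = 0.00649). The call was lost without lymphoma array 1 (adjusted p = 0.0605), 2 (0.0704) or 4 (0.0839) or wild-type array 6 (0.0535), with differences of -0.59 to -0.51. It was also lost without wild-type arrays 1 and 6 (-0.47, adjusted p = 0.0678), without arrays 5 and 6 (-0.45, adjusted p = 0.0841) and with the Gapdh ratio as a covariate (-0.45, adjusted p = 0.1). It held without arrays 3 and 4 (-0.67, adjusted p = 0.0322).

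Ccnd2, the other main D cyclin of lymphocytes, read 11.35 to 13.54 in wild-type cells and 12.86, 12.62, 12.93, 13.63 and 12.95 in lymphomas. The groups overlapped, and the difference was 0.37 (SE 0.375, adjusted p = 0.531). The 2 lowest wild-type values, 11.98 and 11.35, were on arrays 1 and 6, which had the least Cd8a, and without these arrays the difference was -0.11 (adjusted p = 0.749). It was 0.68 without arrays 3 and 4 and 0.059 without arrays 5 and 6 (adjusted p = 0.28 and 0.925). Another Ccnd2 probe set went the other way, at -0.41 (limma adjusted p = 0.483), and the remaining ones lay between 0.21 and 0.36, none called. Ccnd1 read 7.94 to 10.54 in wild-type cells and 9.17, 11.47, 9.54, 9.72 and 9.06 in lymphomas, a difference of 0.67 (SE 0.574, adjusted p = 0.458). Its highest wild-type values, 10.54 and 10.42, were on the same arrays 1 and 6, and without them the difference was 1.35 (adjusted p = 0.0623). It was 0.19 without arrays 3 and 4 and 0.89 without arrays 5 and 6 (adjusted p = 0.868 and 0.379). The other Ccnd1 probe sets differed by 1.13 and 0.66 (limma adjusted p = 0.164 and 0.232, exact permutation p = 0.0909 and 0.0281). Arrays 1 and 6 read 7.48 and 7.71 on the first of these, close to 7.38 on array 5. On the second the wild-type arrays spanned only 5.53 to 6.13. The part of other cells in these D cyclin values was not tested.

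Cdk4 read 11.82 to 12.35 in the wild-type cells, with a median of 12.27, and 12.54, 12.45, 12.75, 12.75 and 12.58 in the lymphomas. All 5 lymphomas lay above every wild-type array, for an exact two-sided permutation p of 0.00216, the smallest that 5 against 6 arrays can give. In the fit across all probe sets its difference of 0.40 (SE 0.131, 1.32-fold) missed the threshold (adjusted p = 0.0616). Of its other probe sets, one was called at 0.49 (SE 0.107, adjusted p = 0.0112) and one missed at 0.40 (adjusted p = 0.0742), both without overlap. The mean of the Cdk4 probe sets gave 0.43 and was called (adjusted p = 0.0281). Without arrays 1 and 6, 3 and 4, or 5 and 6 the difference was 0.44, 0.43 and 0.33, and with the Gapdh ratio as a covariate it was 0.30 (adjusted p = 0.173).

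Cdk6, the kinase partner that predominates in blood cells, varied most. It read 8.14 and 6.67 on wild-type arrays 1 and 2 and 4.48, 3.79, 4.44 and 4.36 on arrays 3 to 6, which lie in the lowest 25% of the values of their arrays. The lymphomas read 10.21, 10.33, 7.15, 6.79 and 6.14, so lymphomas 1 and 2 stood more than 3 log2 units above the other lymphomas. The ranges overlapped through wild-type array 1. Of the 6 wild-type values 4 lay near the floor and 0 of the lymphoma values did, so the size of the rise is not a measured fold. The difference of 2.81 (7.03-fold, SE 1.01) did not pass (limma adjusted p = 0.0841), with an exact permutation p of 0.0281. It was called without wild-type array 1 (3.38, adjusted p = 0.0307) and without arrays 1 and 6 (3.28, adjusted p = 0.042), and it was 2.22 without arrays 3 and 4 (adjusted p = 0.232) and 2.36 without arrays 5 and 6 (adjusted p = 0.221). With the replicate number as a block it was called too (limma adjusted p = 0.00743), in a fit that leaves wild-type array 6 out of the difference.

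The E cyclins and E2f1 split the wild-type arrays in another way. Ccne2 read 7.65 and 8.16 on wild-type arrays 3 and 4, 9.36 to 10.32 on the other wild-type arrays, and 10.42, 10.58, 10.48, 9.94 and 10.44 in the lymphomas. Ccne1 read 9.74 and 9.71 on arrays 3 and 4, 10.81 to 11.58 on the others, and 10.70 to 11.55 in the lymphomas. E2f1 read 5.67 and 5.58 on arrays 3 and 4, 6.97 to 7.51 on the others, and 7.18 to 7.49 in the lymphomas. Another E2f1 probe set, brighter in the T cells, read 7.12 and 6.94 on arrays 3 and 4 and 9.05 to 10.35 on the others. It read 9.20 to 9.75 in the lymphomas, all below wild-type array 5 at 10.35, and differed by 0.66 (limma adjusted p = 0.474). Arrays 3 and 4, the ones with the lowest proliferation markers, were thus the lowest for all 3 genes. The lymphomas spanned 0.31 (E2f1), 0.64 (Ccne2) and 0.85 (Ccne1), and all wild-type arrays 1.94, 2.67 and 1.87. On the other E2f1 probe set the lymphomas spanned 0.55 and the wild-type arrays 3.41. Mki67, a marker of cycling cells, read 9.32 and 9.56 on wild-type arrays 3 and 4, at least 12.57 on the other wild-type arrays and at least 12.82 in the lymphomas.

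Over all arrays Ccne2 differed by 1.24 (2.37-fold, SE 0.432, adjusted p = 0.0767, exact permutation p = 0.0173), Ccne1 by 0.42 (adjusted p = 0.448) and E2f1 by 0.62 (adjusted p = 0.288). Without arrays 3 and 4 these differences were 0.63 (adjusted p = 0.0991), -0.057 (adjusted p = 0.894) and 0.068 (adjusted p = 0.814). Without arrays 1 and 6, in contrast, Ccne2 was called at 1.71 (adjusted p = 0.0103), and Ccne1 and E2f1 were at 0.59 and 0.93 without passing. Ccne2 was also called without array 6 alone (1.48, adjusted p = 0.0291) and without arrays 5 and 6 (1.60, adjusted p = 0.0342), where Ccne1 and E2f1 were at 0.78 and 0.98 (adjusted p = 0.139 and 0.089). The replicate number as a block, which leaves array 6 out of the difference, gave a call on Ccne2 as well. The differences of all 3 genes thus moved by more than 1.5 times with the choice of control arrays.

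The pocket proteins did not separate the groups. Rb1 read 9.88 to 11.12 in wild-type cells and 11.52, 10.75, 10.20, 9.75 and 10.91 in lymphomas (difference -0.061, SE 0.324, adjusted p = 0.916). Lymphoma 1 was the highest of all 11 arrays and lymphoma 4 the lowest. Wild-type arrays 3 and 4 were the lowest wild-type arrays here too, at 10.42 and 9.88 for Rb1 and 11.55 and 11.29 for Rbl1, against at least 10.82 and 11.89 on the others. The dimmer Rbl1 probe set did not show this, with 10.22 and 10.48 on arrays 3 and 4 against 10.19 to 10.44 on the others. Rbl1 differed by -0.11 (SE 0.186, adjusted p = 0.722), and its dimmer probe set by 0.48 (adjusted p = 0.178), so its direction depended on the probe set. Without arrays 1 and 6, 3 and 4, or 5 and 6 the difference of Rb1 was 0.05, -0.33 and 0.021 and that of Rbl1 was -0.0025, -0.28 and -0.035, none of them called.

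**Figure D3:**
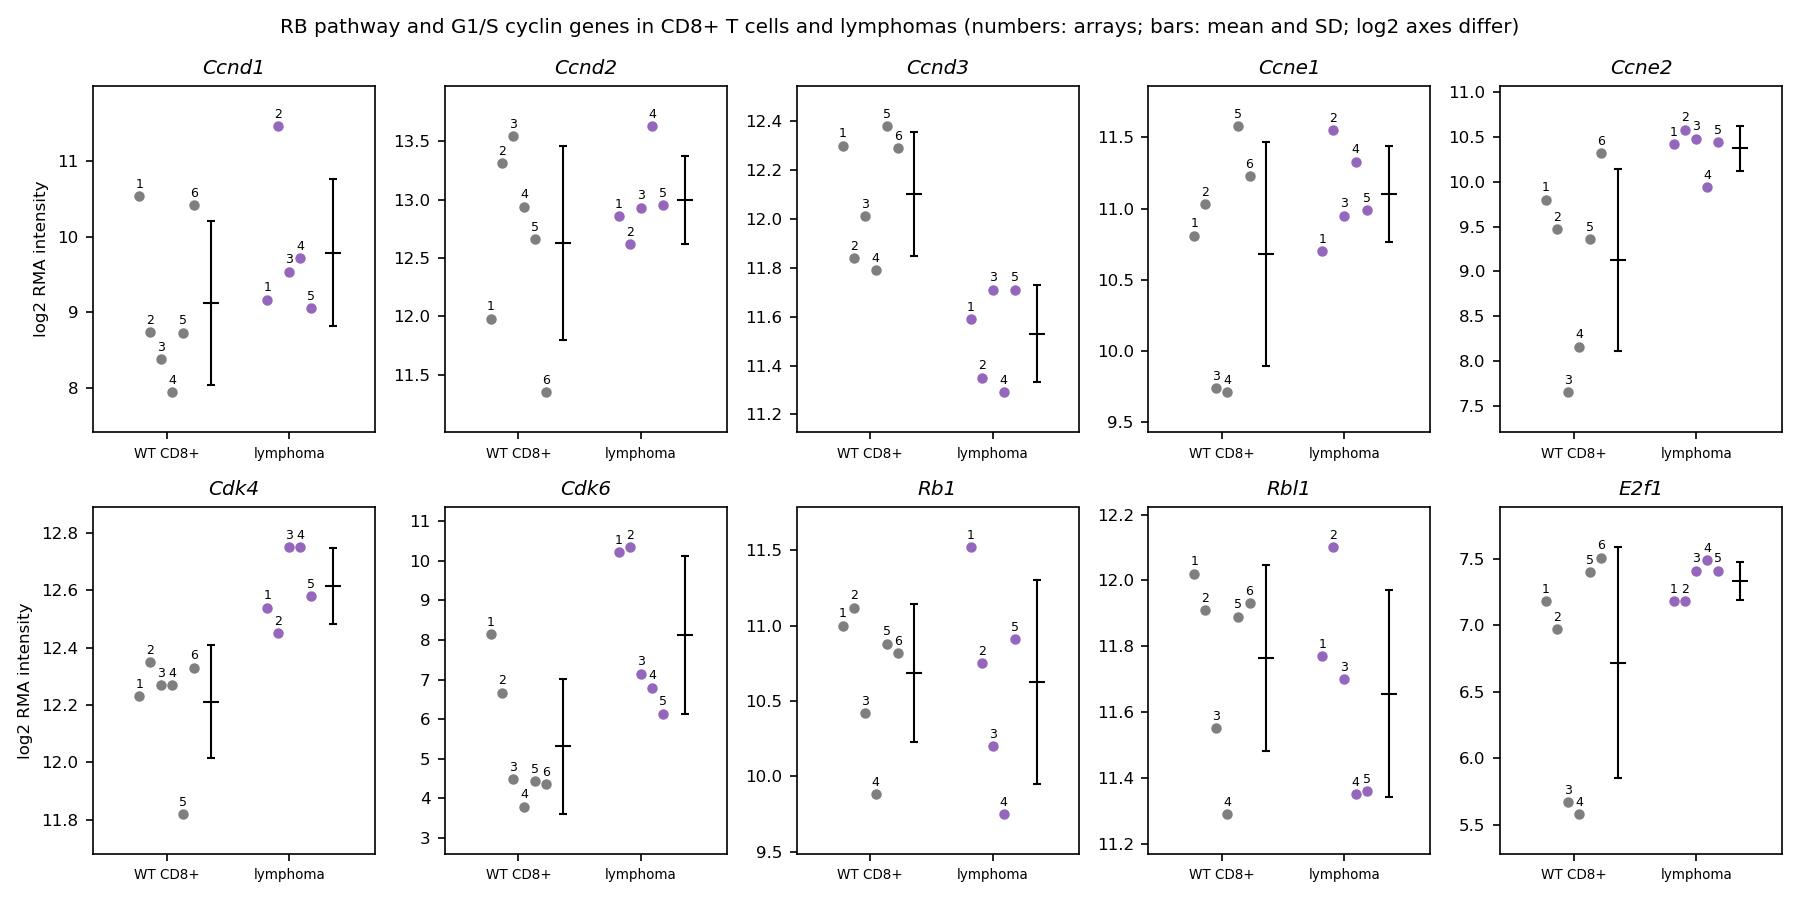
Log2 RMA intensity of the 10 members on each T cell array; numbers name the arrays, black bars show the mean and SD (wild type n = 6, lymphoma n = 5), and each panel has its own log2 axis. Ccnd3 and Cdk4 are the panels without overlap, with Ccnd3 at 11.29 to 11.71 in the lymphomas against 11.79 to 12.38, and the wild-type spread is wide for Cdk6, Ccne2 and E2f1.

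**Figure D4:**
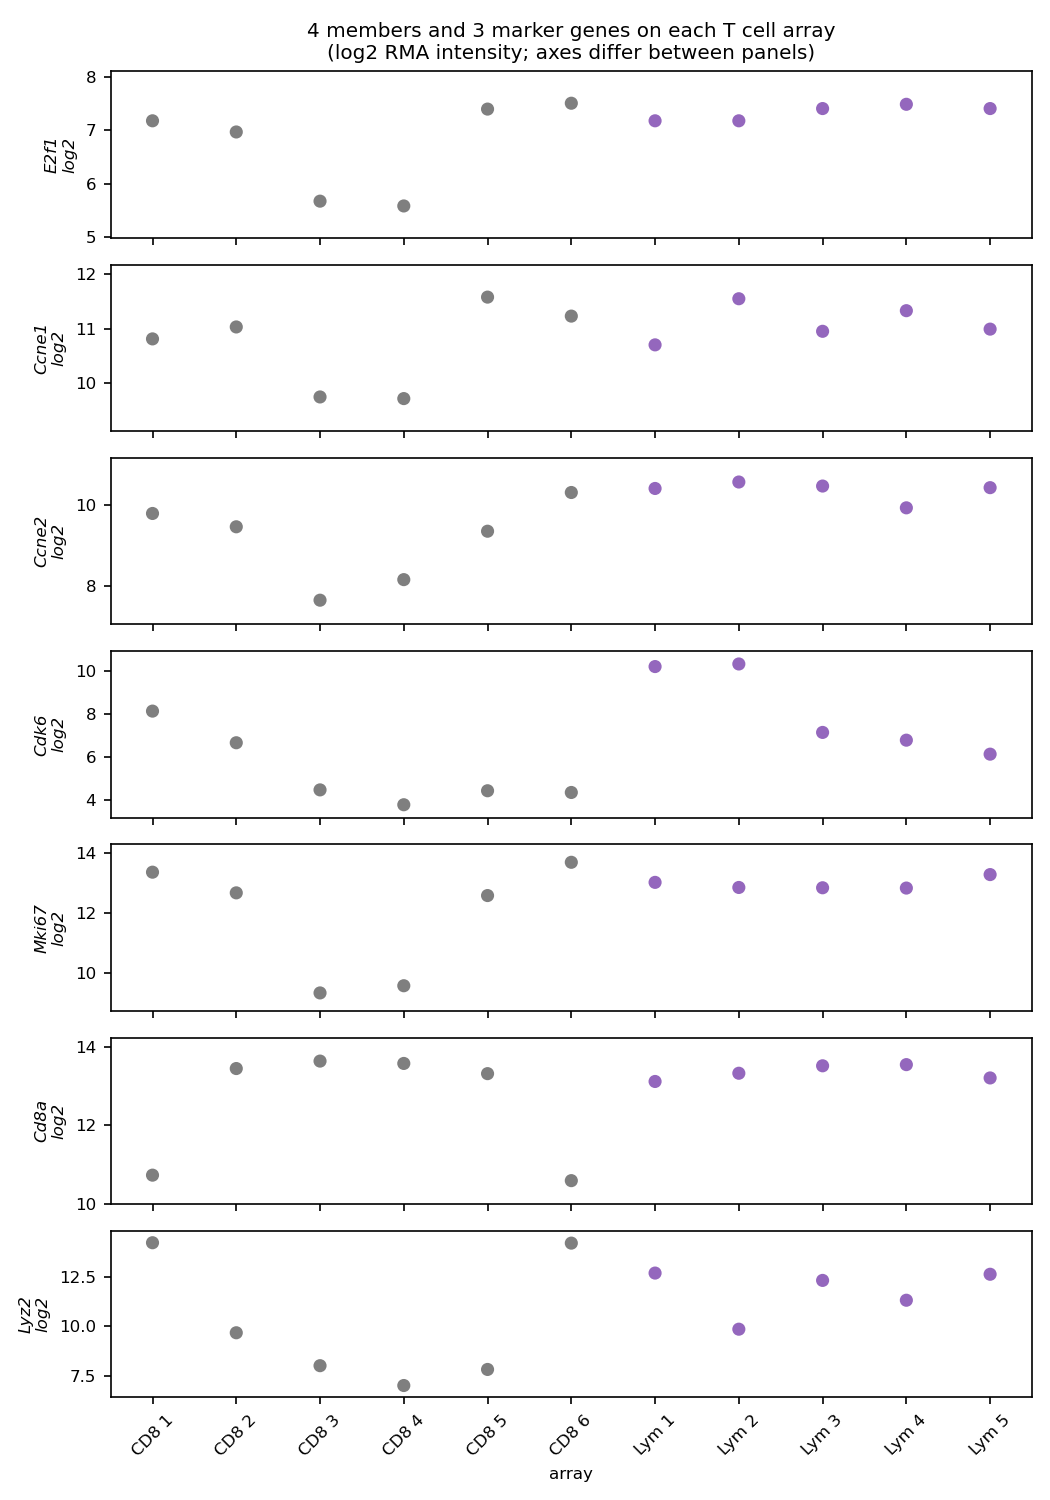
Log2 RMA intensity of E2f1, Ccne1, Ccne2 and Cdk6 beside the proliferation marker Mki67, the CD8 chain Cd8a and the myeloid gene Lyz2 on each T cell array (grey wild-type CD8+, purple lymphoma); the vertical axes differ. Wild-type arrays 3 and 4 are low for E2f1, Ccne1, Ccne2 and Mki67 alike, and arrays 1 and 6 are low for Cd8a (10.73 and 10.59) and high for Lyz2 (14.22 and 14.20).

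Other genes of the pathway were counted from lists of its parts. In the Ezh2-deficient MEFs 1.02% of all genes were called higher and 2.47% lower. These shares were 13.2% and 14.3% in the double mutant, and 16.3% and 13.6% in the direct comparison. Shares of all genes at an unadjusted p under 0.05 were not computed, so list counts at that threshold have no background here. Among 21 measured E2F target genes of S phase, 0 were called higher and 13 lower in the Ezh2-deficient MEFs (0 and 19 at an unadjusted p under 0.05 by limma), with a median of -0.46 against 0.004 over all genes. Tk1 and Mcm5, which serve thymidine salvage and the replicative helicase, fell by 0.81 and 0.76 on the log2 scale (adjusted p = 0.0171 and 0.0209), and the replication licensing gene Cdc6 fell by 0.67 (adjusted p = 0.014). In the double mutant 0 were called higher and 2 lower by limma (Slbp at -0.52 and Mcm4 at -0.50; 2 and 4 at an unadjusted p under 0.05), with a median of -0.087. The direct comparison of both lines called 13 higher and 0 lower in the double mutant, with a median of 0.49 against -0.026 over all genes. The proliferation markers, 11 measured, gave 0 higher and 6 lower with Ezh2 deficiency, 0 and 0 in the double mutant (by limma, also 0 and 0 at an unadjusted p under 0.05), and 10 higher in the direct comparison. With Eif2s3y as a covariate the calls in the Ezh2-deficient MEFs dropped to 1 S-phase gene and 1 marker, at medians of -0.51 and -0.69. They were 3 and 1 without Ezh2-deficient array 1, 1 and 1 without wild-type array 2, 4 and 1 without wild-type array 3, 10 and 8 without wild-type array 1, 9 and 4 without array 2 of the mutant, and 11 and 5 without its array 3. Of the genes named, Cdc6 kept its call in 5 of these 7 alternatives (the covariate and 6 single arrays left out) and Tk1 and Mcm5 in 3. In the direct comparison the S-phase count was 12 to 14 over single arrays left out and 9 with the covariate. The marker count there was 6 without Ezh2-deficient array 1, 7 without Ezh2-deficient array 2 or double-mutant array 1, 9 or 10 without any other array, and 6 with the covariate.

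Of 16 other G1/S kinases, activators and degradation genes, 0 were called higher (2 at an unadjusted p under 0.05 by limma) and 4 lower in the Ezh2-deficient MEFs: the S-phase cyclin Ccna2 (-0.64), the CDK-binding Cks2 (-0.49) and Cks1b (-0.32), and Skp2 (-0.46), the ligase subunit that destroys the inhibitor p27. Cks2 kept its call in all of the same 7 alternatives, Ccna2 and Skp2 in 3 and Cks1b in 1. The count was 1 with the covariate, without Ezh2-deficient array 1 or without wild-type array 2, and 2 without Ezh2-deficient array 3 or wild-type array 3. In the double mutant 4 were called higher and 5 lower, where 13.2% of all genes were called higher and 14.3% lower. Those with the largest change were Fbxw7 (0.77), the ligase subunit that marks cyclin E for destruction, Mnat1 (-0.49), a subunit of the CDK-activating kinase, the F-box gene Fbxo4 (-0.49) and the mitotic brake Wee1 (0.45). Over single arrays left out these counts were 2 to 4 and 2 to 5, with 2 higher without wild-type array 1 or 3 or mutant array 1, and 2 or 3 lower without mutant array 2 or wild-type array 2. The call on Fbxo4 held in 4 of 7 alternatives and those on the other 3 in all 7. Of 12 other RB and E2F family genes, 0 were called higher and 2 lower in each line (0 and 2 higher, 4 and 3 lower at an unadjusted p under 0.05 by limma): Mybl2 (-0.43) and Rbbp4 (-0.23) with Ezh2 deficiency, Tfdp1 (-0.34) and Rbbp4 (-0.17) in the double mutant. The latter count, 2 of 12, stands beside 14.3% of all genes. Rbbp4 lost its call in all 7 alternatives with Ezh2 deficiency and in 6 of 7 in the double mutant, Mybl2 lost it in 2 and Tfdp1 in 0.

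All 7 CDK inhibitors on the list were measured. In the Ezh2-deficient MEFs 1 was called higher and 1 lower, beside 1.02% and 2.47% of all genes. Cdkn2a, the gene of p16 and p19Arf, rose 2.39-fold (adjusted p = 0.0223), and Cdkn1b, which encodes p27, fell 1.33-fold (adjusted p = 0.0327). Both calls were lost with Eif2s3y as a covariate (1.48 and -0.55, adjusted p = 0.082 and 0.061), without Ezh2-deficient array 1 (1.16 and -0.34, adjusted p = 0.0774 and 0.101) and without wild-type array 2 or 3. Cdkn1b also lost its call without wild-type array 1 or Ezh2-deficient array 3. In the double mutant 4 were called higher and 2 lower, beside 13.2% and 14.3% of all genes. Cdkn2c rose 3.31-fold, Cdkn2a 1.84-fold and Cdkn2d 1.63-fold, and Cdkn1c fell 2.16-fold. The call on Cdkn2a was lost without wild-type array 2 or 3 or mutant array 3, where 2 inhibitors were called higher, and the calls on the other 3 held in all 7 alternatives. In the lymphomas 3 were called higher and 2 lower, beside 9.13% and 7.71% of all genes. Cdkn2a read 4.32 to 8.16 in wild-type cells and 10.96, 10.65, 9.75, 10.22 and 11.01 in lymphomas, a rise of 4.62 (adjusted p = 0.00151), and Cdkn1a, the p53 target that encodes p21, rose by 3.85 (adjusted p = 0.00311). On wild-type arrays 2 to 5 Cdkn2a lay between the percentiles 14.7 and 27.8 of all values, near the floor, so the size of its rise is not a measured fold. Its highest wild-type values, 8.16 and 7.63, were on arrays 1 and 6, and the difference was 5.62 without these, 4.33 without arrays 3 and 4, and 4.74 without arrays 5 and 6, called each time. The call on Cdkn1a held in all 14 alternatives (3 pairs and 11 single arrays left out). Cdkn1b was called lower in the lymphomas, and its call held in all 14 as well, at -1.37 to -1.03. Cdkn2b was called higher and Cdkn2d lower, but each kept its call in only 4 of 14, at 1.81 to 3.31 and -1.05 to -0.60. The counts were 2 or 3 higher over these alternatives, and 1 lower on leaving out any single array other than wild-type array 6 or lymphoma array 1. The Cdkn2a probe set is not assigned to either product here.

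Of the 12 mitogen and MYC inputs to the D cyclins, 0 were called higher (1 at an unadjusted p under 0.05 by limma) and 1 lower in the Ezh2-deficient MEFs (Foxo1 at -0.24, a call lost in all 7 alternatives), and 2 higher and 6 lower in the double mutant, where Notch1 rose by 1.11 and Mycn and Myc fell by 0.68 and 0.63 (adjusted p = 4.52e-05, 0.000233 and 0.000705), calls kept in all 7 alternatives. The count of higher genes there was 1 without wild-type array 1 or 2 or mutant array 2 or 3. Over all genes 1.02% were called higher and 2.47% lower in the Ezh2-deficient MEFs, and 13.2% and 14.3% in the double mutant. In the lymphomas 2 were called higher and 2 lower, beside 9.13% and 7.71% of all genes: Fosl1 (2.60), Stat5a (0.62), Notch1 (-2.50) and Foxo3 (-1.20). Fosl1 lay within the lowest 25% of values on every wild-type array, so its rise starts near the floor. Stat5a kept its call in 10 of 14 alternatives and the other 3 in all 14. Without arrays 1 and 6 the list gave 2 higher and 5 lower, without 3 and 4 it gave 1 and 2, and without 5 and 6 it gave 2 and 3. The count of higher genes was also 1 without lymphoma array 3, 4 or 5, and that of lower genes 3 without wild-type array 6 or lymphoma array 2. Myc itself read 11.71 to 12.15 in wild-type cells and 12.56, 11.74, 12.23, 11.91 and 12.69 in lymphomas, an overlap with a difference of 0.30 (adjusted p = 0.322).

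In the lymphomas 6 of the 21 S-phase E2F targets were called higher and 0 lower, with a median of 0.97, led by the origin recognition gene Orc1 (2.11) and Tk1 (1.98). Over all genes 9.13% were called higher and 7.71% lower in this comparison. Of the other RB and E2F family genes 2 of 12 were called higher, E2f3 (1.51) and the p130 gene Rbl2 (1.42), and of the other G1/S genes 1 of 16, Mnat1 (0.79). Without arrays 1 and 6 these counts were 5 and 8 (with 1 G1/S gene lower), without 3 and 4 they were 1 and 2, and without 5 and 6 they were 3 and 2. Over single arrays left out they were 1 to 3 and 0 to 4, with both highest values reached without wild-type array 6. Rbl2 kept its call in all 14 alternatives, Mnat1 in 9 and E2f3 in 4. The proliferation markers gave 0 calls in either direction with a median of 1.39 (by limma, 4 higher and 0 lower at an unadjusted p under 0.05). Without wild-type arrays 3 and 4 the S-phase count was 2 and its median 0.33, and the median of the proliferation markers was 0.37. Without arrays 1 and 6 the S-phase count was 10 and 8 proliferation markers were called higher, at medians of 1.30 and 2.03, and without 5 and 6 these counts were 8 and 1. Over single arrays left out the S-phase count was 1 to 8, with 8 without wild-type array 1 or 6 and 4 or fewer without any other array, and 2 markers were called without array 6. Orc1 and Tk1 each kept their call in 7 of 14 alternatives.

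Genes with the most similar set of differences were sought for the 3 members that differed most on average, by the root mean square distance over the Ezh2, Snf5 Ezh2 and lymphoma comparisons, the first pair of which share controls. For Cdk6 the nearest were Elovl4 (distance 0.066), Scg3 (0.074) and Dnase1l3 (0.077). For Ccne2 they were Ift74 (0.099), Mpp6 (0.11) and Pus7 (0.13), and for Rb1 they were Oas1a (0.04), Cxcl14 (0.097) and Synpo2 (0.1). The largest difference of Cdk6 (2.81) and of Ccne2 (1.24) was the lymphoma one, which was not called (limma adjusted p = 0.0841 and 0.0767). The MEF values of both genes lay near the floor. Whether the genes named here share regulation was not tested.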

How the data were processed

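RNA was hybridised to Affymetrix Mouse 430A 2.0 arrays. The deposited values are RMA intensity on a linear scale, made by the authors, per the labels' protocols; no source used here names the software version or the probe set definitions. They were log2-transformed here. The 64 control probe sets were left out. Over 5639 probe sets with a mean log2 above 9, same-numbered controls of both MEF sets differed by an SD of 0.0219 to 0.0241 and differently numbered ones by 0.137 to 0.152, so each control was counted once: the second set was moved by the offset of its controls and 9 MEF arrays were fitted together (6 residual degrees of freedom). The comparison between the mutant lines ignores the error of that offset. The 11 T cell arrays were fitted alone (9 residual degrees of freedom). Groups were compared with limma 3.58.1 (lmFit, eBayes; R 4.3.3); adjusted p followed Benjamini-Hochberg over 22626 probe sets, and called means under 0.05. Precision is limited by the number of arrays, with a median standard error of 0.0771 (MEFs) and 0.236 (T cells). Members in T cells were also compared by exact permutation. All members are named, with up to 4 called genes of each list and comparison with the largest change. The Eif2s3y, Mki67, Myc, Lyz2, Cd4, Cd8a and Cd8b1 values were named outside that rule, after being seen. The members and lists were chosen with earlier results of these data known. The list counts were also made without single arrays, and in MEFs with an Eif2s3y covariate, choices made after seeing the data. Alternatives changed normalization, centring, filter, variance model, probe set, replicates, covariates and pairing. The steps were tested on simulated data. Promoter sequences are from RefSeq.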

Additional observations from a re-analysis of the deposited data

Results flagged for a closer look

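Within the T cell groups, 3 values stood apart from their group by Dixon's criterion, of 20 groups tested, where chance gives about 1 in 20. Ccnd1 was high in lymphoma array 2 (11.47), Ccne2 was low in lymphoma array 4 (9.94), and Cdk4 was low on wild-type CD8 array 5 (11.82), the array with the highest Gapdh 3′ to 5′ ratio. The part of RNA quality in that Cdk4 value was not tested.

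For 7 members the effects in both mutant fibroblast lines differed by limma's test of the difference (double mutant minus Ezh2-deficient, log2, Benjamini-Hochberg adjusted p from 4.93e-05 to 0.0234): Ccnd2 0.74, Ccnd3 0.40, Ccne1 0.35, Cdk6 -0.26, Rb1 0.74, Rbl1 0.57 and E2f1 0.36. Of all genes 16.3% were called higher and 13.6% lower in this comparison. Cdk6 lay near the floor, and the calls on Cdk6 and E2f1 were lost on leaving out some single arrays. The dimmer Rbl1 probe set gave 0.13 (adjusted p = 0.295).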

How the results depend on the processing

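Of 647 recomputed differences of single members, 587 kept their direction and their side of the threshold, 30 lost a call, 14 gained one and 16 changed sign, all 16 among uncalled values. The number of members called in the Ezh2-deficient MEFs, 1, became 2 with trended robust variances and 0 with Eif2s3y as a covariate, and 1 to 2 on leaving out single arrays. In the lymphomas, 1 became 2 with trended robust variances, 2 with the mean of all probe sets, 2 without wild-type CD8 arrays 1 and 6, 0 with the Gapdh ratio as a covariate, and 0 to 2 on leaving out single arrays. Counts in the other comparisons stayed within 1.5 times. Replicate numbers were not taken to pair the samples. Same-number correlations were -0.22 to 0.15 among MEFs. In T cells all 5 were positive (0.08 to 0.31), 3 of them over 0.1, and 4 of 5 wild-type arrays correlated best with their own number. With the number as a block the lymphoma count was 3, adding Ccne2 (1.48, limma adjusted p = 0.0342) and Cdk6 (2.62, adjusted p = 0.00743). No lymphoma has the number of wild-type array 6, so the blocked fit also leaves that array out of the difference. Without that array alone the Ccne2 difference was 1.48 too. The replicate block kept the other counts within 1.5 times. Signs changed for Rbl1 in the double mutant with the next probe set (-0.0034); for Ccne2 between the mutant lines with median centring (-0.02) and over single arrays left out (-0.025 to 0.053); and in the lymphomas for Rbl1 (0.19 with the mean of its probe sets, 0.48 with the next), for Rb1 (0.05 without arrays 1 and 6, 0.021 without 5 and 6, -0.29 to 0.16 over single arrays left out), for Ccnd2 without arrays 1 and 6 (-0.11) and for Ccne1 without arrays 3 and 4 (-0.057). The cause was not tested. The values hold no detection calls, so Cdk6 and Ccne2 in MEFs and Cdk6 on 4 wild-type CD8 arrays are limited by signal over background.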
